A study of Delphinium anthriscifolium with 89 samples.

Results

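Of 32115 features measured in *Delphinium anthriscifolium*, 19 reached similar high levels in both types of petal and in the stamens and stayed lower in every other organ sampled. They were chosen from the wild-type values themselves. Each estimated count was scaled to counts per 1000000 of its library total (CPM), and the value of a group was the median CPM of its replicates plus 1. The value of an organ was that of its highest stage. A feature was kept where the dorsal petals, lateral petals and stamens lay within 3-fold of each other, and where the lowest of these 3 was at least 6 and at least 3-fold above each of the 6 other organs. The rule allowed up to 200 features, and 19 met it. The organ levels and the ratios drawn from them are therefore given as a description, without a test.

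Petals and stamens are neighbouring whorls of the flower. In the ABC model of floral development both depend on B-function MADS-box genes, which are active in these whorls, while sepals, carpels and leaves form without them. In Ranunculaceae such as Delphinium the sepals are coloured and showy, and the petals are often small organs that bear nectar. The files give an identifier for each feature and do not pair it with a gene name, so no function is assigned to any of the 19 features below.

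Wild-type (WT) libraries came from leaves and bracts taken beneath S9 buds and from dorsal spurred, lateral and ventral sepals, dorsal spurred and lateral petals, carpels and stamens, each sampled at S9, S10, S12 and S16 of floral development. Leaves and bracts had 4 libraries each, floral organs had 2 at S9 and 3 at each later stage, and 33 of the 85 wild-type libraries came from petals and stamens. A further 4 libraries, 2 titled ans and 2 titled ans-lmi1, came from stage 12 organs of plants under virus-induced gene silencing, which lowers a chosen transcript in patches of a treated plant. The study's design text calls the ans control mock, as do the headers of its files, and calls the silenced organs petals, whereas the tissue label of all 4 libraries is lateral non-spurred sepals. The second ans-lmi1 library carries a genotype label of LMI2 in place of LMI1. The targeted genes could not be checked, since no feature carries a name. No label says that replicates are different plants, and the spread behind each p-value is that between libraries, which may be technical. In whole organs, fewer cells of a type and less RNA per cell cannot be told apart.

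Each library held 4201867 to 22100119 estimated counts in all (median 8555603), so that 3 counts correspond to between 0.136 and 0.714 CPM. Fewer than 19000 features had a count in 21 libraries, among them 4 petal and 4 stamen libraries. The third replicate at S16 was one of these in every floral organ. It held 17086 features in dorsal, 16154 in lateral and 9927 in ventral sepals. In dorsal petals it held 18196, in lateral petals 14694, in stamens 11346 and in carpels 15551. The third ventral sepal library correlated with the first and second at r of 0.826 and 0.816, beside 0.989 between those. The third replicate of the ventral sepals at S16 was high for some of the 19 features. There 5 of the 19 were at least 2-fold above both other replicates, beside 12.7% of the 15220 features that reached a value of 6 in both petal types and the stamens. The corresponding counts were 2 in the dorsal sepals (9.07% of all), 1 in the lateral sepals (11.5%) and 3 in the carpels (8.48%), and those of the dorsal and lateral sepals are near or under the shares over all features.

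The median organ value of the 19 features was 163 in dorsal petals, 215 in lateral petals and 210 in stamens. It was 20.9 in dorsal sepals, 20.6 in lateral sepals, 19.4 in ventral sepals, 24.3 in carpels, 11.9 in bracts and 8.97 in leaves. Over all 15220 features the same medians lay between 22.2 in leaves and 42.9 in lateral petals. The median ratio of the lowest petal or stamen value to the highest other organ was 3.67, and the median spread among the 3 organs was 1.71-fold. The organ closest below was a sepal type for 13 features, the carpel for 5 and the bract for 1. No organ led throughout: lateral petals were highest for 7 features, dorsal petals for 6 and stamens for 6. In 15 of the 19, none of the 52 libraries of other organs reached the lowest library of the 3 peak groups. The rule required a 3-fold gap between group values, so this separation was in part set by the selection. The share over all features was not counted.

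The rule selected few features compared with related rules. Applied to stamens alone it kept 1497 features, to both petal types without stamens 26, to stamens with carpels 48 and to the 3 sepal types 80. The limit on spread removed features as well, since 39 met the floor and the 3-fold ratio when the petal types and stamens were allowed to differ by any amount. The 19 belong to 19 different genes of the assembly.

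**Figure D1:**
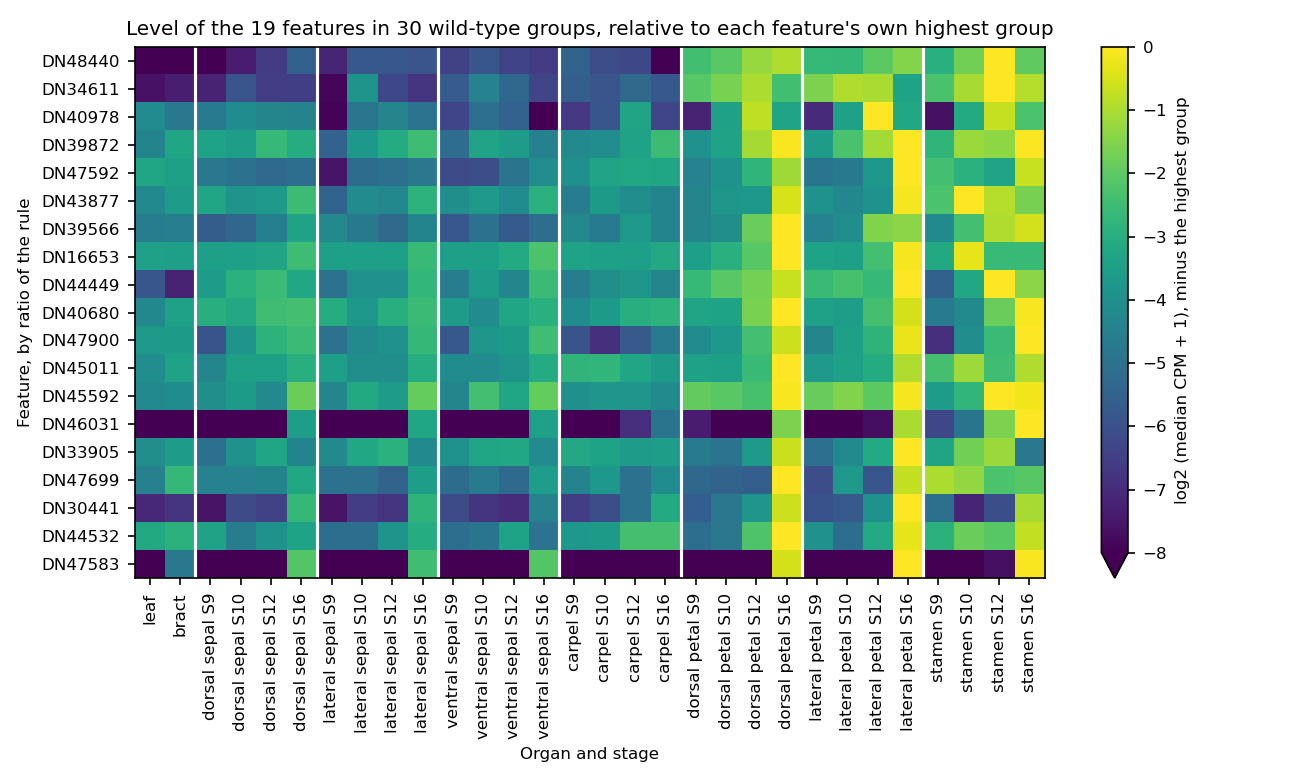
Level of each of the 19 features (rows, by the ratio of the rule) in the 30 wild-type groups (columns), as log2 of the median CPM plus 1 minus the feature's own highest group. The bright columns lie in the petals and stamens on the right, mostly at S16, while DN48440 and DN34611 are bright there at every stage.

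The feature with the largest ratio was DN48440_c4_g3_i2|m.117363 (DN48440), at 15.2-fold. In dorsal petals it lay at 297 and 224 CPM at S9, at 303, 331 and 332 at S10, at 709, 594 and 535 at S12 and at 721, 610 and 719 at S16. In lateral petals the libraries held 226 and 221 CPM at S9, 194, 249 and 218 at S10, 339, 364 and 325 at S12 and 492, 415 and 516 at S16. In stamens they held 199 and 167 CPM at S9, 427, 456 and 350 at S10, 1420, 1386 and 961 at S12 and 391, 357 and 228 at S16. It was thus high at each stage in all 3 organs, with a peak at S12 in the stamens and at S16 in the petals. The highest of the 52 other libraries was the third ventral sepal library at S16, at 60.7 CPM, and the other sepal and carpel libraries lay between 0 and 45.0 CPM. In leaves and bracts 2 counts were found in each set of 4 libraries, which is under the 3 counts taken as the floor.

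The second feature, DN34611_c0_g1_i1|m.15072 (DN34611), had a ratio of 7.40. Its dorsal petal libraries held 53.8 and 55.9 CPM at S9, 75.5, 90.2 and 47.9 at S10, 76.5, 119 and 167 at S12 and 29.3, 43.2 and 65.4 at S16. Lateral petals held 72.3 and 81.3 CPM at S9, 83.8, 120 and 135 at S10, 115, 123 and 91.95 at S12 and 21.7, 35.0 and 14.5 at S16. Stamens held 38.8 and 54.6 CPM at S9, 113, 141 and 104 at S10, 208, 233 and 447 at S12 and 111, 126 and 512 at S16. It was lowest at S16 in lateral petals and, unlike most of the 19, peaked before S16 in all 3 organs. At S16 the first and second sepal libraries held 0.187 to 1.90 CPM, whereas the third held 29.8 in dorsal, 11.5 in lateral and 30.0 in ventral sepals. The first carpel library at S10 was also high, at 17.9 CPM beside 2.99 and 1.01.

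DN40978_c0_g1_i1|m.29713 (DN40978), with a ratio of 5.91, rose and fell around S12. Dorsal petals held 0.300 and 2.24 CPM at S9, 35.6, 30.6 and 16.7 at S10, 198, 225 and 140 at S12 and 38.3, 32.7 and 32.5 at S16. Lateral petals held 0.144 and 3.03 CPM at S9, 30.6, 23.0 and 34.5 at S10, 295, 389 and 340 at S12 and 56.4, 36.3 and 24.1 at S16. Stamens held 0 and 1.39 CPM at S9, 56.9, 38.8 and 36.3 at S10, 237, 209 and 153 at S12 and 70.4, 73.4 and 52.1 at S16. The 9 S12 libraries of petals and stamens were above all other petal and stamen libraries. Carpels were also highest at S12, at 32.8, 45.9 and 19.9 CPM, and dorsal sepals were nearly flat from S10 on, between 14.2 and 24.4 CPM.

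DN39872_c0_g1_i2|m.25751 (DN39872) had a ratio of 5.27 and the most even values, within 1.07-fold across the 3 organs at their peak. Dorsal petals held 7.50 and 5.41 CPM at S9, 10.9, 10.04 and 8.56 at S10, 53.3, 38.4 and 57.1 at S12 and 108, 97.9 and 169 at S16. Lateral petals held 7.92 and 9.10 CPM at S9, 17.1, 22.8 and 23.4 at S10, 69.4, 53.1 and 51.2 at S12 and 115, 77.2 and 131 at S16. Stamens held 13.7 and 18.0 CPM at S9, 47.9, 48.8 and 79.8 at S10, 31.9, 44.2 and 56.9 at S12 and 120, 111 and 21.5 at S16. The third stamen library at S16, one of those with fewer than 19000 features, lay below the S12 stamen libraries. That library also held the lowest S16 stamen value for DN47900_c0_g1_i6|m.106346, at 11.9 CPM beside 125 and 117, and for DN45592_c0_g1_i1|m.70173, at 0 beside 35.7 and 31.2.

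**Figure D2:**
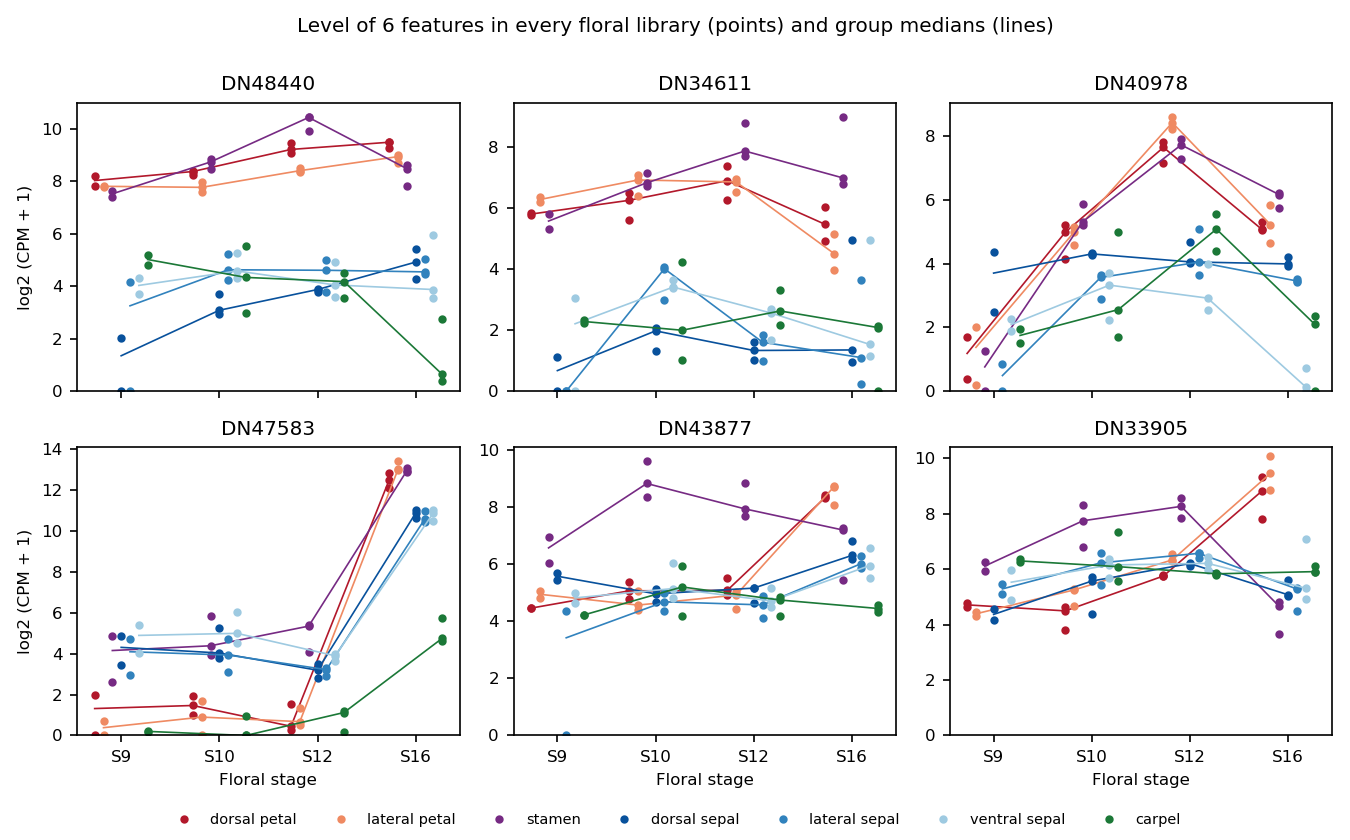
CPM of 6 of the features in every floral library, as log2 of CPM plus 1 against stage (points, coloured by organ), with lines through the group medians. The medians of DN48440 and DN34611 lie above those of sepals and carpels at all stages, though single libraries of DN34611 overlap at S16. DN40978 peaks at S12, DN47583 rises at S16 in sepals too, and DN43877 and DN33905 peak earlier in stamens than in petals.

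DN47583_c1_g1_i1|m.100354 (DN47583) had the smallest ratio inside the rule, 3.08, and large CPM values at S16. CPM is not scaled to transcript length, so it does not rank features by abundance. At S12 it lay at 0.365, 0.209 and 1.87 CPM in dorsal petals, at 1.54, 0.433 and 0.598 in lateral petals and at 15.7, 41.6 and 39.7 in stamens. At S16 it lay at 5774, 4396 and 7326 CPM in dorsal petals, at 8241, 8183 and 11009 in lateral petals and at 7884, 7543 and 8786 in stamens. Sepals rose at the same stage, to 2080, 1877 and 1565 CPM in dorsal, 1994, 1509 and 1393 in lateral and 1877, 1424 and 2077 in ventral sepals. Carpels stayed at 25.9, 23.2 and 52.3 CPM. At S16 the feature was thus high in every floral organ but the carpel, and the petal and stamen libraries lay above all sepal libraries. It is 1 of 3 features of its assembly gene and 61.8% of its values are whole numbers, so reads shared within the gene were divided by estimation. When the features of each assembly gene were summed, this gene no longer met the rule.

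High counts were also found for DN39566_c0_g1_i1|m.25078 (DN39566), DN44449_c10_g1_i1|m.55249 (DN44449) and DN46031_c0_g1_i1|m.77258 (DN46031). DN39566 held 3059, 2871 and 2972 CPM in dorsal petals at S16, 1139, 928 and 1797 in lateral petals and 2021, 2070 and 1555 in stamens. Its highest other library was the third dorsal sepal library at S16, at 444 CPM, and the third ventral library held 415 CPM beside 82.6 and 54.7. DN44449 held 1080, 1122 and 936 CPM in dorsal petals and 1721, 2232 and 1226 in lateral petals at S16, and peaked in stamens at S12, at 2956, 1721 and 1505. DN46031 held 470, 488 and 322 CPM in dorsal petals at S16, 705, 692 and 271 in lateral petals and 1396, 1412 and 1576 in stamens. It lay closest to the limit on spread, at 2.999-fold, and did not meet the rule when features were summed by assembly gene.

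Near the limits, DN44532_c1_g2_i1|m.56319 (DN44532) and DN47583 were the last inside, with ratios of 3.080 and 3.075. The next features outside were DN40156_c0_g1_i3|m.27087 at 2.95 and DN43411_c0_g1_i2|m.43285 at 2.90. By spread, DN45101_c0_g1_i1|m.63256 at 3.19-fold and DN47433_c1_g5_i1|m.98451 at 3.49-fold were the first left out. The ratio therefore had no gap at the threshold.

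The other members had ratios between 3.14 and 4.23 and organ values between 8.99 and 699 in the petals and stamens. They were DN47592_c0_g2_i2|m.100572 (4.23), DN43877_c2_g1_i3|m.47355 (4.11), DN16653_c0_g1_i1|m.4065 (3.86), DN40680_c0_g2_i1|m.28464 (3.67), DN47900 (3.58), DN45011_c0_g1_i1|m.63300 (3.45), DN45592 (3.24), DN33905_c0_g1_i1|m.14039 (3.23), DN47699_c0_g3_i2|m.102229 (3.18) and DN30441_c0_g1_i1|m.10026 (3.14), by the ratio of the rule. DN16653 rested on few counts, with at most 21.5 CPM in any petal library and 9.08 in any stamen library.

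The rule used the highest stage of each organ but not which stage that was. It set limits on spread and ratio at these peaks, whereas the 15220 features only had to reach 6 in the 3 organs. The shares of the 19 features may thus be in part set by the selection, and they are given as a description. In both petal types S16 was the highest stage for 17 of the 19 features, beside 27.4% of the 15220 features in dorsal and 24.7% in lateral petals. In stamens it was S16 for 10 (28.9% of all), S12 for 6, S10 for 2 and S9 for 1. The same 19 features were also highest at S16 in dorsal sepals for 13, in lateral sepals for 14, in ventral sepals for 12 and in carpels for 8. For many of the 19 a peak at S16 was thus not limited to petals and stamens. The shares over all features were not counted for sepals and carpels. The petal types peaked at the same stage for 18 features, a share of 94.7% beside 64.0% of the 15220 features. All 3 organs peaked together for 11 features, 57.9% beside 33.1%, and 10 of these 11 peaked at S16 (13.7% of all features did so), the exception being DN40978. The remaining 8 features reached their shared level at different times in petals and stamens. DN43877 shows this: its 3 S16 libraries held 326, 342 and 325 CPM in dorsal petals and 425, 427 and 268 in lateral petals, while its stamen libraries were highest at S10, at 327, 793 and 457, and lower at S16, at 147, 153 and 43.1. DN33905 lay at 445, 636 and 222 CPM in dorsal petals and at 698, 1076 and 456 in lateral petals at S16. In stamens it reached 231, 305 and 381 CPM at S12 and then lay at 27.3, 24.1 and 11.7.

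Since petals and stamens could meet the rule at different stages, the levels were also compared within a stage. The ratio of the lowest of the 2 petal types and stamens to the highest of the sepals and carpels at the same stage was at least 3 for 2 of the 19 features at S9, 2 at S10, 4 at S12 and 13 at S16. Over all 15220 features the same ratio was reached by 2, 4, 19 and 41 features. For the 10 features that peaked at S16 in all 3 organs, the rule itself fixed a ratio of at least 3 at S16. The same holds for DN40978 at S12. These counts are therefore a description and no further check of the pattern. DN48440 passed it at all 4 stages, with ratios of 5.67, 8.83, 13.9 and 11.8, and so did DN34611, with 9.80, 4.74, 18.8 and 5.37. These 2 were the only features of the 15220 to reach it at S9. DN39566 passed at S12 and S16, with 3.61 and 4.00. A further 11 passed at 1 stage only. The other 5, DN43877, DN16653, DN44449, DN33905 and DN47699, reached 3-fold at no single stage, and DN33905 did not exceed 0.568. For these 5 the label of a level shared by petals and stamens holds across stages and not within one. The count at S16 rested partly on single libraries: without replicate 1 of every group it was 7, without replicate 2 it was also 7, and with the replicate mean in place of the median it was 8. Without the libraries of fewer than 19000 features it was 11.

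**Figure D3:**
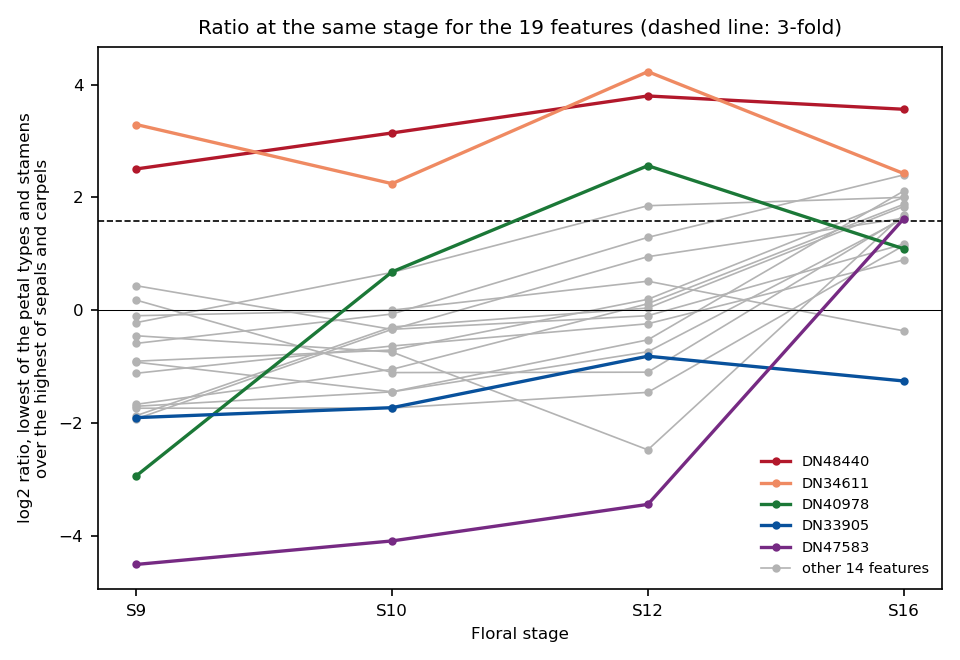
Ratio, on a log2 scale, of the lowest of dorsal petals, lateral petals and stamens to the highest of sepals and carpels at the same stage, for each of the 19 features; the dashed line marks 3-fold. DN48440 and DN34611 lie above it at S9, S10, S12 and S16, and 13 features lie above it at S16.

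Dorsal and lateral petal libraries overlapped for most of the 19 features at each stage. At S9 the dorsal libraries were all above the lateral ones for 2 features and below them for 4. Over all features 14.3% were above and 21.9% below. At S10 the counts were 2 and 3 (7.48% and 8.47% of all), at S12 they were 3 and 3 (12.6% and 10.9%), and at S16 they were 5 and 2 (13% and 9.42%). They overlapped for 13, 14, 13 and 12 of the 19 at the 4 stages. DN48440 was higher in dorsal petals at S10, S12 and S16, where no libraries overlapped. DN40978 at S12 was higher in lateral petals, at 295 to 389 CPM beside 140 to 225.

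Changes between stages were tested with edgeR's quasi-likelihood F test in one fit of the 33 petal and stamen libraries. The 22737 features tested included all 19, and p-values were adjusted by Benjamini-Hochberg over all features of a comparison, with a threshold of 0.05. The rule drew on the same libraries and took the highest stage, so the direction of these steps is in part set by the selection, and the counts are given beside those of all features as a description. From S10 to S12, 5 of the 19 rose in dorsal petals (1.45% of all features) and none fell (1.2%, with 2.65% called either way). In lateral petals 8 rose (3.19%) and none fell (3.13%, and 6.32% either way). In stamens 5 rose (2.78%) and 1 fell (3.51%, and 6.29% either way). From S12 to S16, 14 rose in dorsal petals (10.8%) and 1 fell (10.2%, and 21% either way). In lateral petals 14 rose (9.33%) and 2 fell (10.5%, and 19.8% either way). In stamens 6 rose (7.51%) and 4 fell (10.9%, and 18.4% either way). The median log2 change of the 19 from S12 to S16 was 2.68 in dorsal petals, 2.97 in lateral petals and 0.62 in stamens, beside 0.00, -0.10 and -0.25 over all features.

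Of the steps from S10 to S12, DN40978 rose in all 3 organs. Its log2 change was 2.76 ± 0.56 (SE, 3 libraries against 3) in dorsal petals with an edgeR adjusted p of 0.00461, 3.61 ± 0.58 in lateral petals with 2.40e-04, and 2.15 ± 0.55 in stamens with 0.0155. In each organ its S12 libraries lay above all S10 libraries. DN39566 and DN40680 also rose in all 3 organs at this step. DN39566 changed by 1.81 ± 0.33 in dorsal petals, by 2.67 ± 0.34 in lateral petals and by 1.38 ± 0.32 in stamens on the log2 scale. DN40680 changed by 2.34 ± 0.44, 1.71 ± 0.43 and 1.74 ± 0.43 in the same order. The other features that rose in dorsal petals were DN48440, by 0.93 ± 0.23, and DN39872, by 2.33 ± 0.41. In stamens DN44449 had the largest rise, 3.24 ± 0.40 with an edgeR adjusted p of 8.00e-06, DN48440 rose by 1.57 ± 0.24, and DN45011 fell by 1.66 on the log2 scale with an SE of 0.40.

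The counts of this step fell without some single libraries, as did the share of all features called. In lateral petals 3, 4 and 3 features were called without S10 replicate 1, 2 or 3, in place of 8. The shares over all features were 3.34%, 4.28% and 4.61%, in place of 6.32%. Without S12 replicate 1 it was 2 features, with 2.52% of all. In dorsal petals 3 were called without S10 replicate 3 (1.34% of all, in place of 2.65%). In stamens 3 were called without S10 replicate 3, S12 replicate 1 or S12 replicate 2. The shares over all features were 3.9%, 2.7% and 3.1%, in place of 6.29%. Over 13 alternatives, 3 of the 5 calls in dorsal petals, 2 of the 8 in lateral petals and 1 of the 6 in stamens held throughout. DN48440 in dorsal petals lost its call in 6 of 13 alternatives, DN40978 in stamens in 5 of 13, DN45011 in stamens in 5 of 13 and DN40978 in dorsal petals in 1 of 13, without the third S10 library. The largest fitted steps in lateral petals belonged to features near 0. DN16653 had no count in the S10 libraries and 1.35, 1.04 and 1.10 CPM at S12, which is at least 7.2-fold higher when set against 3 counts over the group. DN44532 had 1 count over the S10 libraries and 7.88, 1.65 and 2.99 CPM at S12, a ratio of 76.2 with an exact 95% counting interval of 13.4 to 3031.

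From S12 to S16 DN47583 rose by 13.26 ± 1.30 on the log2 scale in dorsal petals (edgeR adjusted p 4.95e-08), by 13.77 ± 1.32 in lateral petals (4.70e-08) and by 8.15 ± 1.07 in stamens (5.11e-06), and all these calls held in each of 13 alternatives. Its petal libraries held at most 1.87 CPM at S12 and at least 4396 CPM at S16. DN46031 had the next largest rise in dorsal petals, 6.88 ± 1.67, and DN47699 in lateral petals, 6.52 ± 0.92, from 0.385, 1.47 and 0.299 CPM at S12 to 46.7, 46.3 and 57.9. In stamens DN30441 rose by 5.24 ± 0.72, from 3.55, 1.81 and 1.34 CPM to 92.8, 91.3 and 40.6. DN40978 fell by 2.01 on the log2 scale with an SE of 0.54 in dorsal petals and by 2.65 with an SE of 0.56 in lateral petals. DN34611 fell by 1.74 with an SE of 0.46 in lateral petals, a call that was lost when all wild-type libraries shared one fit. In stamens the largest fall was that of DN33905, 3.66 with an SE of 0.45 and an edgeR adjusted p of 1.34e-06. DN48440 fell by 1.75 with an SE of 0.24, DN44449 by 1.69 with 0.38 and DN43877 by 1.23 with 0.40. DN43877 lost this call without the third stamen library of S12 or of S16. Throughout the 13 alternatives 10 of the 15 calls in dorsal petals, 10 of the 16 in lateral petals and 4 of the 10 in stamens held.

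**Figure D4:**
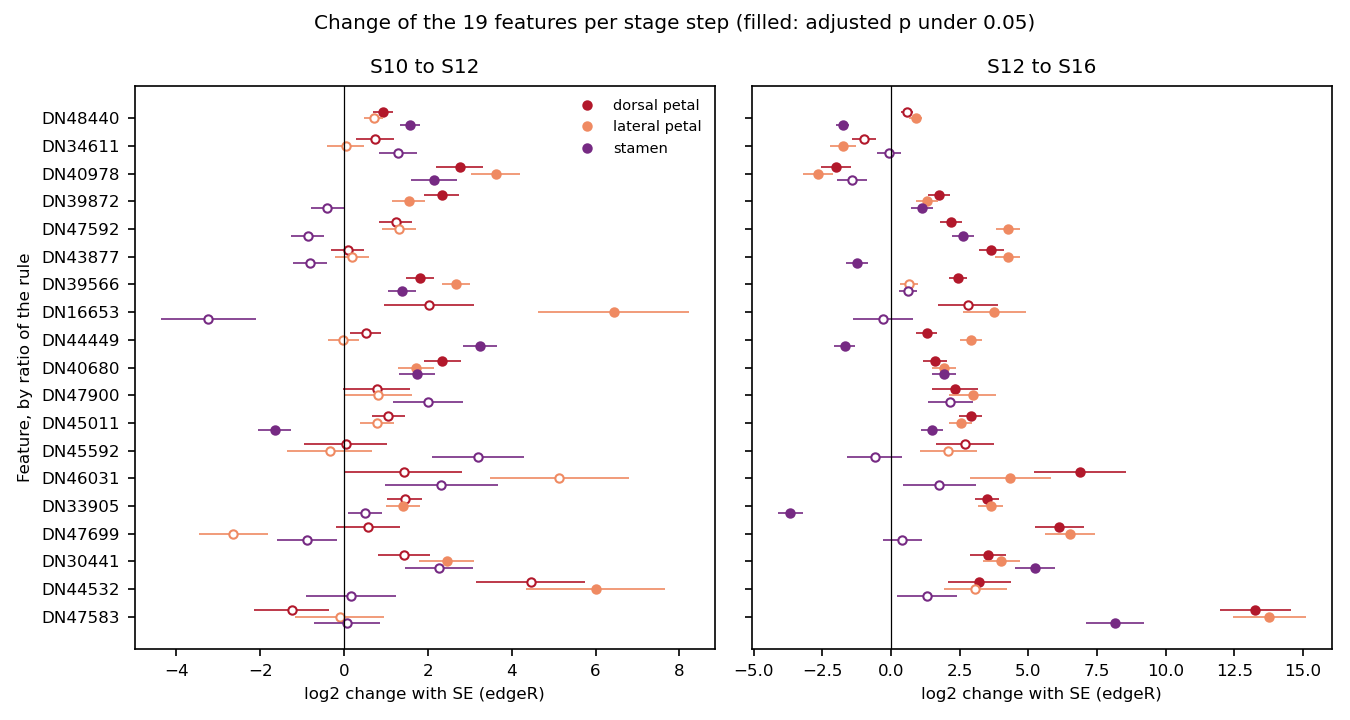
Change of each of the 19 features from S10 to S12 (left) and from S12 to S16 (right) in dorsal petals, lateral petals and stamens, as the edgeR log2 change with its standard error; filled points passed an adjusted p of 0.05. From S12 to S16 most petal points lie to the right of 0, while DN33905, DN48440, DN44449 and DN43877 fell in stamens.

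Whether stamens and petals moved differently was tested as the stamen step minus the mean of the petal steps, in the same fit. The rule took the highest stage of each organ from these libraries. The differences may thus be in part set by the selection, and they too are given as a description. From S12 to S16 the step was smaller in stamens for 6 of the 19 features (5.06% of all features) and larger for none (4.22%, and 9.28% either way). The largest difference was that of DN33905, -7.22 ± 0.57 on the log2 scale with an edgeR adjusted p of 3.42e-09, since it rose in both petal types and fell in stamens. DN47699 had -5.91 ± 0.97 with 1.19e-04, rising in petals while its stamen libraries lay at 15.5, 15.2 and 18.9 CPM at S12 and at 18.1, 17.0 and 23.2 at S16. DN48440 had -2.49 ± 0.29 with 1.28e-06. All 6 calls held in each of 24 alternatives. From S10 to S12 the step was larger in stamens for DN44449 alone, 3.00 ± 0.47 with 3.69e-04 (0.712% of all features were called in this direction). It was smaller for 4 features (1.5%, and 2.21% either way): DN16653, DN45011, DN39872 and DN47592. Of these, DN45011 differed by -2.58 ± 0.49 and DN39872 by -2.34 ± 0.49, and DN47592 differed by -2.13 ± 0.48 and lost its call in 3 of 24 alternatives. DN39872 lost its call in 1, the fit of all wild-type libraries.

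Libraries held back from the selection gave a check on the organ pattern. When the rule was applied without replicate 1 of every group it chose 19 features, and in the libraries of replicate 1 the petal types and stamens were above every other organ for 18 of these, by 3-fold or more for 8. Without replicate 2 it chose 15, of which 15 were above and 12 by 3-fold. Without replicate 3 it chose 20, of which 16 were above and 5 by 3-fold. Over all 15220 features the share above every other organ in those single replicates was 6.61%, 8.30% and 5.11%. The median ratio in the libraries held back was 2.93, 3.92 and 1.91. The order of organs thus recurred more often than the 3-fold size, and both shares were lowest in replicate 3.

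The membership moved with the libraries used. Without replicate 1, 2 or 3 of every group, 12, 9 and 14 of the 19 features were chosen again. All 19 were chosen without replicate 4, which only leaves and bracts have. The number was 14 when the libraries with fewer than 19000 features were left out, 17 with TMM-scaled CPM and 14 with the replicate mean. Besides a 4-fold ratio, which kept 7 features by construction, 7 features met the rule under each of these settings, with no 1 added and after summing by assembly gene. They were DN34611, DN40978, DN47592, DN43877, DN39566, DN40680 and DN47900. DN48440 dropped out without replicate 3 and without the sparse libraries because its spread rose to 3.09-fold and 3.05-fold, with its ratio still at 14.0.

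The silencing libraries were used by no step of the rule. No member changed between ans-lmi1 and ans by edgeR's test, with 2 libraries against 2, and no feature of the 18757 tested did (0% called). At an unadjusted p under 0.05 there were 3 of the 19 and 1373 of all features, and DESeq2 called 122 features, none of them among the 19. DN40978 had the smallest p of the 19, with 160 and 200 CPM in ans and 290 and 297 in ans-lmi1, a log2 difference of 0.72 ± 0.17 and an edgeR adjusted p of 0.599. DN34611 lay at 28.8 and 30.0 CPM in ans and at 37.8 and 49.5 in ans-lmi1, with a log2 difference of 0.59 ± 0.19 and an edgeR adjusted p of 0.652. DN47583 varied most, at 35.1 and 203 CPM in ans and at 1026 and 7.55 in ans-lmi1, so the spread within ans-lmi1 covered that of ans. The median log2 difference of the 19 was 0.35, beside 0.01 over all features.

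The sources give the organ of the silencing libraries as petals and as sepals. Over 19921 features, each of the 4 libraries correlated most with wild-type lateral petals at S12 among all wild-type groups. Pearson r there was 0.938 and 0.944 in ans and 0.919 and 0.953 in ans-lmi1. With lateral sepals at S12 it was 0.887 and 0.888 in ans and 0.879 and 0.895 in ans-lmi1. The 19 features were chosen for higher wild-type levels in petals than in sepals, so their levels here are a description. Setting each library beside wild-type lateral petals and lateral sepals at S12, 17, 17, 17 and 15 of the 19 features lay nearer the petals in ans replicates 1 and 2 and ans-lmi1 replicates 1 and 2. These counts include features that hardly differ between the 2 wild-type organs, such as DN33905 and DN43877, and others above both, such as DN40680. Of the 10 that differ at least 3-fold, 9 being higher in petals, 9, 9, 9 and 7 were nearer the petals in the same order, and 7 in all 4 libraries. DN48440 lay between 393 and 606 CPM in these libraries, beside a mean of 342 in lateral petals and 21.0 in lateral sepals. DN39566 lay between 1180 and 2643 CPM, beside 1072 and 78.4. DN40978 lay between 160 and 297 CPM, beside 339 and 18.1. All 3 features were thus nearer the petal mean than the sepal mean. DN48440 and DN39566 lay above every wild-type lateral petal library at S12, which held at most 364 and 1173 CPM. DN40978 lay below the range of those libraries, 294.5 to 389 CPM, in both ans libraries and in ans-lmi1 replicate 1. DN34611, at 28.8 to 49.5 CPM, lay between the petal mean of 109 and the sepal mean of 1.79. DN47699 and DN47583 were nearer the sepals in all 4 libraries, and for both the wild-type petal mean at S12 was below the sepal mean. DN47699 lay above both means throughout, at 1.28 to 6.70 CPM beside 0.645 in petals and 0.977 in sepals. DN47583 also lay above both, 0.798 and 7.82, except in ans-lmi1 replicate 2 at 7.55 CPM. Over all 1047 features with such a 3-fold difference and a value of at least 6 in either organ, between 72.6% and 84.1% were nearer the petals. A lean to the petals was thus not particular to the 19 features.

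**Figure D5:**
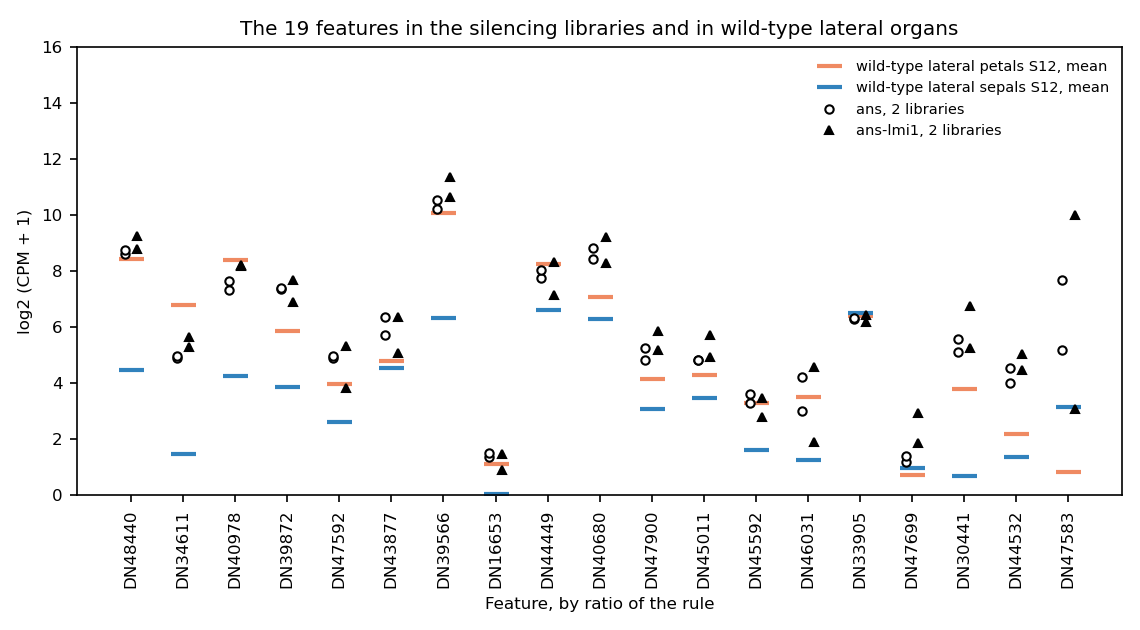
Level of each of the 19 features in the 2 ans (open circles) and 2 ans-lmi1 libraries (filled triangles), as log2 of CPM plus 1, beside the geometric means of wild-type lateral petals and lateral sepals at S12 (bars). Of the 10 features whose means differ at least 3-fold, 7 are nearer the petal mean in all 4 libraries, and DN47583 spans 7.55 to 1026 CPM within ans-lmi1.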

How the data were processed

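RNA was sequenced from organs of Delphinium anthriscifolium. The authors deposited estimated counts for the features of a transcript assembly, which need not be whole numbers. TopHat2 and RSEM appear in the submitters' processing notes, with no version or role. Reference, filters and strand use: not given in the sources used here. Near-identical features share reads, which changes single-feature values: 29.3% of them share their assembly gene with another feature, as do 3 of the 19.

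CPM used column totals and no gene length, so it gives no order of abundance between features. It served for the rule, the organ values, the peak stages, the ratios, the silencing levels and the choice of features to name. Rounded counts went through R 4.3.3 and edgeR 4.0.16 (filterByExpr, TMM, robust quasi-likelihood fit) and checked on simulated data. The 33 petal and stamen libraries were fitted together (coefficient of variation 0.607) and the 4 silencing libraries alone (0.265). No pair of libraries agreed within sampling noise. DESeq2 1.42.0, other scalings and left-out libraries served as alternatives. The members, lists and rules were chosen with earlier results of these data known. Named features are the 4 with the largest ratio, the 4 with the highest organ level, those next to the thresholds, the 2 largest and smallest called changes of a comparison and every called member where at most 5 were called in a direction. Other members shown are named after their values were seen. Planned gene lists by name (B-class, anther, nectary and LMI1 genes) were not analysed here, since identifiers carry no names. Same-numbered replicates were not treated as pairs, because their deviations did not correlate above 0.1 in every pair of any comparison. These were the stages of an organ and ans with ans-lmi1, and organs of the same stage were not compared. Intervals and floors cover counting error only.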

Additional observations from a re-analysis of the deposited data

Results flagged for a closer look

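Among the leaf and bract libraries, 38 groups of 4 were checked for a sample far from the others and 6 were picked out. The rate of about 1 in 20 by chance holds for independent groups, and these share the same leaf and bract libraries. The count of 6 is therefore given without that comparison. Within leaves and within bracts each value came from a different library. In leaves they were 0.167 CPM of DN48440 in replicate 2, 30.9 CPM of DN43877 in replicate 4 and 0.832 CPM of DN30441 in replicate 1. In bracts they were 259 CPM of DN39566 in replicate 2, 0.385 CPM of DN16653 in replicate 4 and 34.8 CPM of DN44449 in replicate 1. The values of DN48440 in leaves and DN16653 in bracts are the only counts in their groups, so any count would stand apart there. All 6 values lie below the petal and stamen levels of these features at their peak.

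The stage step differed between stamens and petals for 5 features from S10 to S12 and 6 from S12 to S16, by edgeR's test of the difference. Over all features 2.21% and 9.28% were called. The rule drew on the same libraries, so these counts are a description. On the log2 scale, stamen step minus mean petal step, the differences from S10 to S12 were 3.00 for DN44449, -2.34 for DN39872, -2.13 for DN47592, -2.58 for DN45011 and -7.47 for DN16653. The last value is no bound, because the lateral petal libraries at S10 had no count of DN16653. From S12 to S16 the differences were -7.22 for DN33905, -5.91 for DN47699, -5.37 for DN47583, -5.18 for DN43877, -3.80 for DN44449 and -2.49 for DN48440. DN47583 rose in all 3 organs, from a lower start in petals than in stamens, whereas DN33905, DN43877, DN44449 and DN48440 fell in stamens.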

How the results depend on the processing

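No called change reversed under any alternative, and 114 of 1044 repeats for single features lost the call. A ratio of 2-fold kept 46 features and one of 4-fold kept 7. The count of 13 at S16 became 8 with the replicate mean, and 7 without replicate 1 or 2. In dorsal petals from S10 to S12 (5 called), DESeq2 gave 8, the petal libraries alone 9 and the libraries with at least 19000 features 10. In stamens from S10 to S12, 6 were called (6.29%). The values were DESeq2 10 (11.2%), all wild-type libraries 3 (5.30%), stamens alone 1 (1.71%) and without sparse libraries 12 (19.9%). In stamens from S12 to S16, 10 were called (18.4%), beside 6 with all wild-type libraries (15.8%) and 5 with stamens alone (7.73%). The difference of steps from S10 to S12 gave 5 (2.21%), beside 3 with all wild-type libraries (2.07%) and 9 without sparse libraries (12.9%). 

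Leaving out 1 library gave 3 to 5 called members in dorsal petals, 2 to 7 in lateral petals and 3 to 6 in stamens from S10 to S12. From S12 to S16 it gave 11 to 14, 13 to 15 and 8 to 10. In these steps the share of all features called fell too, except in stamens from S10 to S12 without S10 replicate 2 (7.03%, beside 6.29%). The differences of steps ranged from 4 to 5 and from 6 to 7, and the silencing comparison stayed at 0. With the replicate block the counts were 6, 10 and 6 from S10 to S12 (2.85%, 6.35% and 6.45% of all features). From S12 to S16 they were 14, 16 and 9 (20.9%, 19.6% and 17.8%). For the differences they were 5 and 6 (2.34% and 9.41%), and for silencing 0. No label says what a replicate number marks, and whether numbers pair libraries of different organs was not tested. Size factors of the DESeq2 kind moved the median log2 change of all features in stamens from S10 to S12 from 0.06 to -0.07, and called the same 6 members. Without the sparse libraries the share of all features called rose as well. Steps from S10 to S12 are limited by depth for features under 1 CPM. The causes were not tested.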
